A study of Homo sapiens with 4 samples.

Results

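PHLDA1, PHLDA2, PHLDA3, MDM2, MDM4, RRM2B, GDF15, TP53I3 and ZMAT3 were examined in MDA-MB-231 breast cancer cells and in LM2 cells. The PHLDA genes are a family, and the other 6 genes are negative regulators or targets of p53. The 9 genes were chosen by name from 34555 named genes of the deposited table. They had 17 of the 65423 transcripts, of which 16 were NM_ and 1 was NR_ entries of RefSeq. The transcript of highest mean count stood for each gene, and all 9 had a mean of at least 50 counts, as had 15440 of the named genes.

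MDA-MB-231 is a triple-negative human breast cancer cell line, and MDA-MB-231-LM2 (LM2) is its highly lung-metastatic derivative. MDA-MB-231 cells were grown in Leibovitz L-15 medium and LM2 cells in DMEM, both with serum. The parental line was kept in plain air, whereas LM2 cells had CO2 added to the air, so that medium, atmosphere and cell line cannot be told apart. The labels give 2 samples for each cell line, while the table has a single column for each, and how the column was made from the samples was not given in the sources used here. No difference could therefore be checked against replicates, no p-value is given, and the intervals below are 95% intervals that cover counting error alone.

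p53 is a transcription factor that is activated by DNA damage and other stress, and it switches on genes for cell cycle arrest, apoptosis, DNA repair and metabolism. This describes normal p53. Whether p53 is mutated in these cells was not given in the sources used here, and its activity was not tested. MDM2 is both a target of p53 and the ubiquitin ligase that degrades it, and MDM4 is a relative of MDM2 that blocks p53 as a transcription factor. The proteins of the PHLDA family carry a pleckstrin-homology-like domain. PHLDA3 is a p53 target that keeps AKT from the membrane, PHLDA2 is an imprinted gene best known as a brake on placental growth, and PHLDA1 follows growth factor and ERK signalling.

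The MDA-MB-231 column summed to 130689252 counts and the LM2 column to 128985870, and the 12 largest transcripts took 30.7% and 27.4% of them. The RPKM, the count per kilobase of transcript scaled to the column total, was 550 and 951 for vimentin (VIM) and 11.6 and 9.59 for the growth factor receptor EGFR, both typical of this cell line. The oestrogen receptor ESR1 had 2 and 8 counts, the progesterone receptor PGR had 7 and 2, and the leukocyte gene PTPRC had 8 and 7. Of the other genes listed beforehand as absent or low, GATA3 had 88 and 95 counts and FOXA1 had 10 and 57. ERBB2, also on that list, was not low, with 2966 and 1922 counts and an RPKM of 4.91 and 3.22. LUM, listed for other cell types, had 76 and 18 counts. The endothelial gene PECAM1 had 48 counts in the parental cells and 343 in LM2, and its part in the results was not tested. In these bulk samples, fewer cells of a type and less RNA per cell cannot be told apart.

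Among the 9 genes, PHLDA3 was over 2-fold lower in LM2 and none was over 2-fold higher. Of all 15440 genes counted, 6.88% lay over 2-fold lower and 4.57% lay over 2-fold higher. PHLDA2, at 1.98-fold higher, lay just inside 2-fold, and the other 7 genes were within 1.5-fold. The log2 ratio of LM2 over MDA-MB-231 was below 0 for 6 genes and above 0 for 3, with a median of -0.01 over the 9 genes and of -0.0043 over all genes. The intervals of MDM4 and GDF15 held 0.

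**Figure D1:**
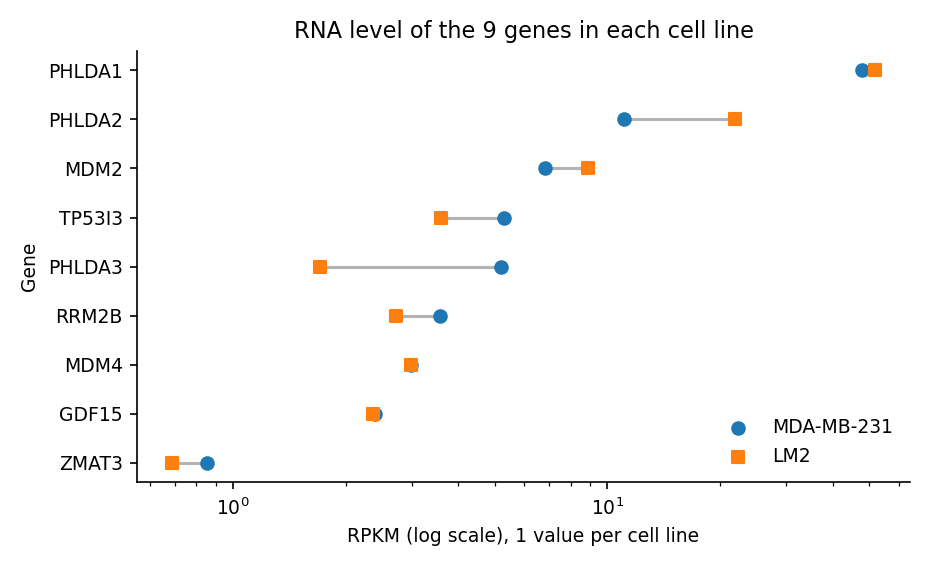
RPKM of the 9 genes in MDA-MB-231 and LM2 on a log axis, with 1 point per cell line and no replicates. PHLDA1 is the highest in both cell lines (47.9 and 51.7) and ZMAT3 the lowest (0.854 and 0.690), and PHLDA3 moves from 5.21 to 1.71.

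Per length, PHLDA1 and PHLDA2 were the most abundant of the 9 transcripts in both cell lines, followed by MDM2 and TP53I3. PHLDA3 took rank 5 in MDA-MB-231 and rank 8 in LM2. RRM2B was at rank 6 in both, and ZMAT3 was the lowest in both and the only gene under an RPKM of 1. In MDA-MB-231 the RPKM of TP53I3 (5.30, interval 5.03 to 5.58) could not be told from that of PHLDA3 (5.21, interval 4.91 to 5.53). In LM2 the intervals of RRM2B (2.59 to 2.85) and GDF15 (2.13 to 2.63) overlapped. The other neighbours in each order had intervals that did not overlap. These ranks hold for the transcript chosen by count, and the middle ones change with another choice. In MDA-MB-231, NM_001206802 of TP53I3 had an RPKM of 8.17, above MDM2 at 6.81, and NM_012396 of PHLDA3 had 5.55. The median RPKM of the 15440 genes was 3.14 in the parental cells against 2.99 in LM2, so that PHLDA3 lay above the median gene in the former and below it in the latter.

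**Figure D2:**
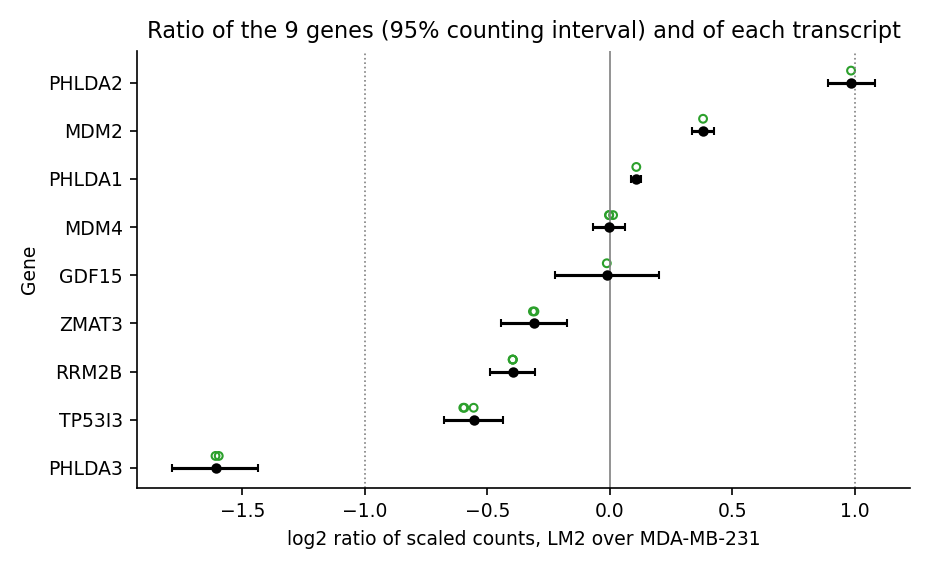
Log2 ratio of LM2 over MDA-MB-231 for the 9 genes, with 95% intervals for counting error (black), each of the 17 transcripts (open circles) and the 2-fold limits (dotted). PHLDA3 (-1.61) is the only gene beyond a limit, the interval of PHLDA2 (0.98) crosses the upper one, and MDM4 and GDF15 lie at 0.

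The PHLDA genes differed in the direction and size of their ratios. PHLDA3 (NR_073080, chr1:201464278-201469188 in GRCh38) had 1107 counts in MDA-MB-231 against 358 in LM2. It was 3.05-fold lower in LM2 (2.71 to 3.45), and 454 of the 15440 genes, or 2.94%, had a lower ratio. The coding transcript NM_012396 of the gene had 1100 and 359 counts and was 3.02-fold lower (2.68 to 3.42). The transcripts overlap and can hold the same reads, so their likeness is not a repeat measurement.

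PHLDA2 (NM_003311, chr11:2928273-2929420) went the other way, with 1332 counts in MDA-MB-231 against 2602 in LM2. Its RPKM was 11.1 and 21.9, a 1.98-fold higher value in LM2 (1.85 to 2.12), and 95.3% of genes had a lower ratio. The interval held 2-fold, so counting error alone does not settle on which side of the limit the gene lay. PHLDA1 (NM_007350, chr12:76025447-76031776) had 37032 and 39398 counts and was 1.08-fold higher in LM2 (1.06 to 1.09). With an RPKM of 47.9 and 51.7, it exceeded 96.0% of the genes in both cell lines.

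The balance within the family therefore shifted. The RPKM of PHLDA1 was 9.19 times that of PHLDA3 in MDA-MB-231 and 30.2 times in LM2, a 3.29-fold change of the ratio (2.91 to 3.72). PHLDA2 exceeded PHLDA3 by 2.13 times in the parental cells and by 12.8 times in LM2, a 6.04-fold change (5.26 to 6.94). PHLDA1 exceeded PHLDA2 by 4.33 times in MDA-MB-231 and by 2.36 times in LM2.

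Neither of the negative regulators of p53 passed 2-fold. MDM2 (NM_002392, chr12:68808172-68850686) had 6650 counts in MDA-MB-231 against 8546 in LM2, and was 1.30-fold higher in LM2 (1.26 to 1.34). MDM4 (NM_002393, chr1:204516406-204558120) had 3937 and 3877 counts, a log2 ratio of -0.00 (-0.07 to 0.06) that exceeded that of 50.1% of the genes. The RPKM of MDM2 was 2.28 times that of MDM4 in MDA-MB-231 and 2.97 times in LM2, a 1.31-fold change of the ratio (1.24 to 1.38).

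MDM2 has an internal promoter that p53 uses, and its sequence is shown because it held the closest matches to the p53 consensus among the promoters searched. The consensus is a pair of 10-base elements, read here without a spacer and with at most 3 mismatches over its 20 bases. RefSeq promoters (GRCh38.p14, 250 bases before to 50 after the start) were at hand for 6 of the 9 genes, 10 promoters in all, and not for PHLDA2, PHLDA3 and RRM2B. The promoter of the internal MDM2 start lies at chr12:68808767-68809066 on the plus strand, and capitals mark the matches.
MDM2 internal promoter: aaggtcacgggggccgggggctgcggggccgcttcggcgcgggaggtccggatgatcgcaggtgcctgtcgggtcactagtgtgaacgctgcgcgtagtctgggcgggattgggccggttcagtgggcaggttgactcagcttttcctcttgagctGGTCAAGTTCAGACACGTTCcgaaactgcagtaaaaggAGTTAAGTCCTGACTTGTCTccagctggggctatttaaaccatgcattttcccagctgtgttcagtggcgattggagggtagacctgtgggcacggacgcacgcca
Counted from the start, the match at positions -94 to -75 has 2 mismatches and that at -56 to -37 has 3. Another start a few bases on shares both matches, and the promoters of the upstream MDM2 starts came no closer than 5 mismatches. Of 35116 promoters in the table, 5.2% held a match with at most 3 mismatches and 0.649% one with at most 2. A match of letters is a description and does not show binding in these cells.

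GDF15 is a secreted stress cytokine of the TGF-β superfamily and a p53 target, and it was the only other gene with a match in a promoter. The promoter is shown because the gene itself was at the same level in both cell lines within counting error. It lies at chr19:18385908-18386207 on the plus strand of GRCh38.p14, taken from RefSeq, and capitals mark the match, which has 3 mismatches and lies 29 to 48 bases after the start.
GDF15 promoter: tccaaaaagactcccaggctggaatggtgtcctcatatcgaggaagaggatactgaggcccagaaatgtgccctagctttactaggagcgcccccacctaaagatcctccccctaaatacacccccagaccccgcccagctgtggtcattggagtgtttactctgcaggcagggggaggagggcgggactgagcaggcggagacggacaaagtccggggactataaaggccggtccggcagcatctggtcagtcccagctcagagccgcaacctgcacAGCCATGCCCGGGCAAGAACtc
GDF15 (NM_004864) had 375 counts in MDA-MB-231 against 367 in LM2, with an RPKM of 2.39 and 2.37. Its log2 ratio was -0.01 (-0.22 to 0.20), the widest interval among the 9 genes. The fewest mismatches in the remaining promoters were 6 for PHLDA1, 5 for MDM4, 5 for TP53I3 and 4 for ZMAT3.

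Several genes known to regulate GDF15 were higher in LM2, while the level of GDF15 differed by less than counting error. Of 9 genes listed for its regulation, receptor and processing, 7 had a mean of at least 50 counts. Of these, 4 (57.1%) were over 2-fold higher in LM2, against 4.57% of all genes, and none was over 2-fold lower. The list was chosen with earlier results of these data known, and its genes are not independent. The share is therefore a description and not a test. With no minimum count, which added the receptor genes GFRAL and RET, the median log2 ratio of the list went from 1.20 to 0.38. ATF4, the transcription factor of the integrated stress response, had 12655 and 32299 counts and was 2.59-fold higher (2.53 to 2.64). DDIT3 (CHOP), a target of ATF4, was 2.29-fold higher (2.16 to 2.43), and CEBPB was 3.14-fold higher (2.99 to 3.30). EGR1 had 90 and 232 counts. The receptor gene GFRAL was listed at 0 in both cell lines, and its co-receptor RET had 2 counts in each.

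TP53I3 encodes a quinone reductase linked to oxidative stress and cell death, and it was lower in LM2. NM_004881 (chr2:24077433-24084834) had 1409 counts in MDA-MB-231 against 946 in LM2, a 1.47-fold lower value (1.35 to 1.60). Its 3 transcripts lay within 0.042 of each other in log2 ratio. Of 9 related quinone reductases, 8 were counted, with none over 2-fold lower, beside 6.88% of all genes. Only NQO1, a target of NRF2, was over 2-fold higher, at 3.21-fold (3.13 to 3.30), beside 4.57% of all genes.

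RRM2B encodes the p53-inducible small subunit of ribonucleotide reductase, the enzyme that makes deoxynucleotides, and was also lower in LM2. NM_001172477 had 2299 and 1724 counts, a 1.32-fold lower value (1.24 to 1.40), and 23.1% of genes had a lower ratio. RRM2, the S-phase small subunit, was 1.45-fold lower (1.40 to 1.49), and RRM1, the large subunit, was 1.33-fold higher (1.30 to 1.36). The RPKM of RRM1 went from 8.41 to 14.7 times that of RRM2B, whereas RRM2 went from 6.02 to 5.48 times. None of the 9 genes of deoxynucleotide supply passed 2-fold, beside 6.88% of all genes lower and 4.57% higher.

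ZMAT3, a zinc finger RNA-binding protein and p53 target, had the lowest level of the 9 genes. NM_152240 (chr3:179017223-179072513) had 1017 counts in MDA-MB-231 against 811 in LM2, a 1.24-fold lower value (1.13 to 1.36). Of the 3 other ZMAT genes that met the minimum, ZMAT1 had 122 and 39 counts, so that it did so through MDA-MB-231 alone. It was 3.09-fold lower (2.14 to 4.55), and it was not past 2-fold on the log2(RPKM + 0.1) scale.

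Of the 57 other p53 targets in 5 lists, 52 had a mean of at least 50 counts. In LM2, 4 of these (7.69%) lay over 2-fold lower and 2 of these (3.85%) lay over 2-fold higher, near the 6.88% and 4.57% of all genes. Their median log2 ratio was -0.09, with 30 genes below 0 and 22 above. CDKN1A (p21), the inhibitor of cyclin-dependent kinases, had 6101 and 3587 counts and was 1.68-fold lower (1.61 to 1.75). None of the 8 arrest genes counted passed 2-fold, and 7 had a log2 ratio below 0, with a median of -0.17. The share of all genes below 0 was not counted. PLK2, at 1.99-fold lower (1.94 to 2.04), lay just inside 2-fold, and its interval held that limit.

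**Figure D3:**
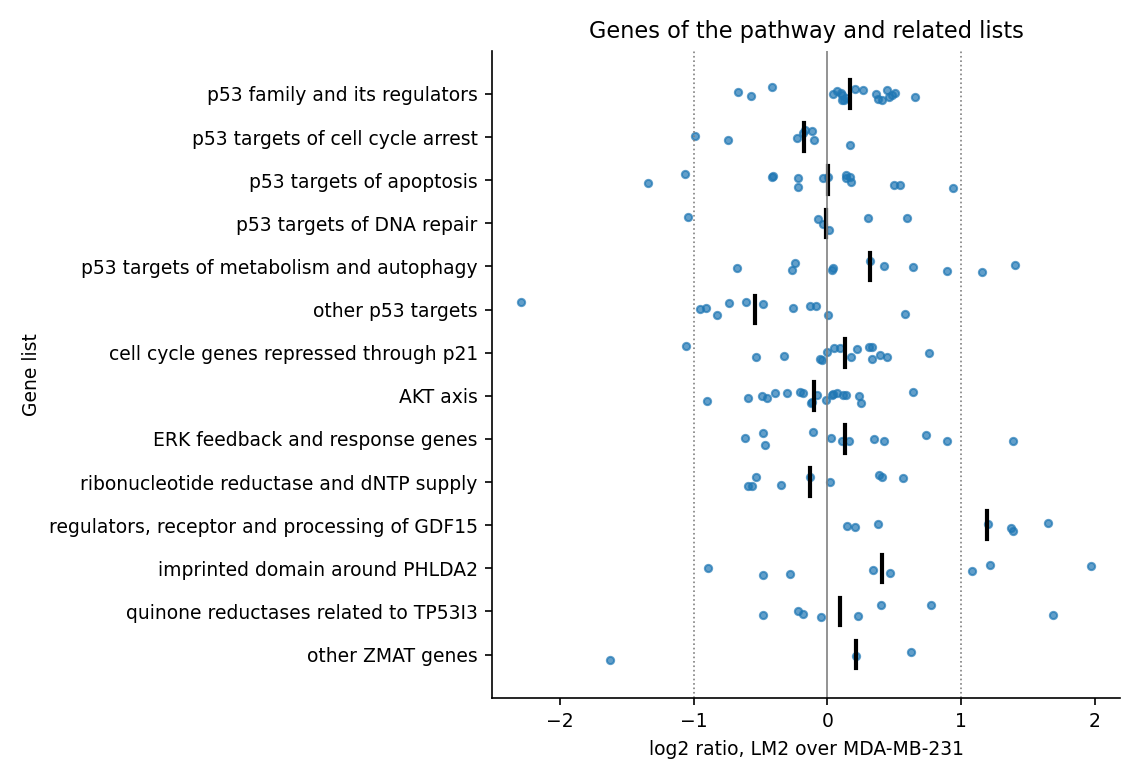
Log2 ratio of LM2 over MDA-MB-231 for the genes of each list with a mean of at least 50 counts, 1 point per gene, with the list medians as bars, the 2-fold limits dotted and a vertical scatter that has no meaning. The medians run from -0.54 for the other p53 targets to 1.20 for the regulators of GDF15, whose 7 genes all lie above 0.

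The targets past 2-fold that are described here came from separate branches of the response. PMAIP1 (NOXA), a BH3-only killer protein, was 2.53-fold lower (2.41 to 2.67), and the death receptor FAS was 2.09-fold lower (1.66 to 2.65). POLH, a translesion polymerase, was 2.06-fold lower (1.98 to 2.16). The intervals of FAS and POLH held 2-fold, so counting error alone does not settle on which side of it they lay. The mTORC1 inhibitors SESN2 and DDIT4, which ATF4 also induces, were 2.64-fold (2.43 to 2.87) and 2.23-fold higher (2.17 to 2.29).

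Of the 20 p53 family members and regulators counted, none passed 2-fold, beside 6.88% of all genes lower and 4.57% higher. Their median log2 ratio was 0.17, against -0.0043 over all genes, and 17 lay above 0. The share of all genes above 0 was not counted. TP73 had 278 and 173 counts and was 1.59-fold lower (1.31 to 1.93), TP63 had 22 and 65 counts, under the minimum, and CDKN2A was listed at 0 in both. Among 16 cell cycle genes repressed through p21, MYBL2 was 2.08-fold lower (1.94 to 2.23) and none was over 2-fold higher. The interval of MYBL2 held 2-fold.

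The pathways of the PHLDA proteins were counted in the same way, beside the 6.88% of all genes that were lower and the 4.57% that were higher. Of 20 genes of the AKT axis, on which PHLDA3 acts, none passed it, and the median log2 ratio was -0.10. AKT1 was 1.31-fold lower (1.27 to 1.35) and AKT2 was 1.09-fold lower (1.05 to 1.13). Of 12 ERK feedback and response genes, EGR1 was 2.61-fold higher (2.04 to 3.37) and none was over 2-fold lower. EGR1 had a mean under 200 counts, and with that minimum no gene of the list passed 2-fold.

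Of 12 genes in the imprinted domain that holds PHLDA2, 8 had a mean of at least 50 counts. Of these, 3 (37.5%) were over 2-fold higher in LM2, against 4.57% of all genes. This list too was chosen with earlier results of these data known, so the share is a description. CARS1, a cysteinyl-tRNA synthetase that ATF4 also controls, had 3431 and 7859 counts and was 2.32-fold higher (2.23 to 2.42). SLC67A1 (the former SLC22A18) had 111 and 232 counts. Its antisense gene SLC22A18AS had 24 and 93, so that it met the minimum through LM2 alone. Whether the pair shares reads was not checked. With a minimum of 200 counts, CARS1 was the only gene of the domain over 2-fold higher. The domain also held lower values. KCNQ1OT1, the imprinted non-coding RNA, had 4685 and 2485 counts and was 1.86-fold lower. Under the minimum, IGF2 had 38 and 0 counts and KCNQ1 had 12 and 1. The median log2 ratio of the domain was 0.41 at the minimum of 50 counts, 0.03 at 10 counts and -0.13 with none. The lower minimums added genes with few or no counts, and no direction held at every minimum.

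**Figure D4:**
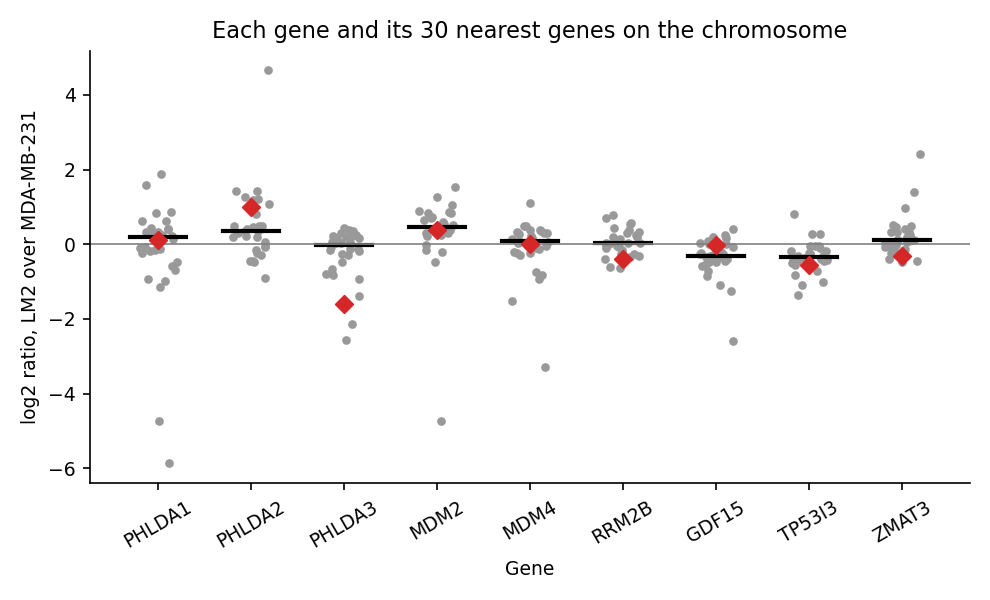
Log2 ratio of each of the 9 genes beside the 30 nearest named genes on its chromosome, with the median of the neighbours. PHLDA3 (-1.61) lies below a neighbour median of -0.02, and PHLDA2 (0.98) lies above one of 0.34.

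The neighbourhoods along the chromosome were also compared, as a description. The 30 genes nearest to PHLDA3 had a median log2 ratio of -0.02, and only ELF3 and SYT2 among them had a lower ratio than PHLDA3. Around PHLDA2 the median was 0.34, and 23 of 30 had a lower ratio. RRM2B (2 of 30 lower, median 0.03) and ZMAT3 (3 of 30 lower, median 0.11) also lay near the low end of their neighbours. MDM2, by contrast, lay near the middle of neighbours with a median of 0.46, of which 13 had a lower ratio. TP53I3 lay with a low region, where the median was -0.34.

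Whether the counts separated the strands was not given in the sources used here. In GENCODE release 29, no exon of the other strand overlapped PHLDA2, PHLDA3, MDM4, GDF15, RRM2B or ZMAT3 in the transcripts matched. Exons of the other strand covered 9.35% of PHLDA1, 7.27% of MDM2, in a model longer than the one listed, and 4.0% of TP53I3. The gene opposite TP53I3, FAM228B, had 208 and 79 counts, fewer than TP53I3 in both cell lines.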

How the data were processed

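RNA of MDA-MB-231 and LM2 cells was sequenced. Per the labels, the authors used bcl2fastq and TopHat2 (version 2.0.13) with hg19 (GRCh37). The counter, its handling of strand and the gene annotation were not given in the sources used here. As deposited by the authors, the files hold whole-number read counts per transcript, used unchanged, and RPKM values, which equal the count over the listed length and the column total to a relative difference of at most 4.98e-06. The totals were 130689252 and 128985870 counts.

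Symbols came from GENCODE release 29 and RefSeq of GRCh38.p14, which paired 62331 transcripts, and no coordinates were converted. The edgeR test planned for libraries could not be fitted to 1 column per cell line. Ratios are LM2 counts over MDA-MB-231 counts, scaled by the column totals, with a Clopper-Pearson interval, and RPKM intervals are exact Poisson. Genes of a list were counted over 2-fold where their mean count was at least 50. The text names all 9 genes, up to 4 genes of each list (the 2 largest and 2 smallest ratios past 2-fold) and a few fixed genes (CDKN1A, TP63, TP73, AKT1, AKT2, RRM1, RRM2, ATF4 and DDIT3 among them). Some genes that the rule names are not reported here. CDKN2A, PLK2, GFRAL, RET, SLC67A1, KCNQ1OT1, IGF2, KCNQ1, ELF3, SYT2 and FAM228B fall outside this rule and were picked once their values had been seen. The 9 genes and the lists were chosen with earlier results of these data known. The calculation was tested on simulated data. Alternatives used edgeR 4.0.16 and DESeq2 1.42.0 for scaling in R 4.3.3. Other steps used Python 3.11.15, numpy 2.4.6, pandas 2.3.3, scipy 1.17.1 and matplotlib 3.10.9.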

Additional observations from a re-analysis of the deposited data

How the results depend on the processing

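With other scalings, scales, minimums and choices of transcript, 1 of the 9 genes was over 2-fold lower and none higher in every setting that gave a value. PHLDA3 ran from -1.66 to -1.20 in log2 ratio, the latter with log2(RPKM + 1), and PHLDA2 from 0.925 to 0.999. MDM4 (-0.06 to 0.01) and GDF15 (-0.07 to 0.00) changed sign with the scaling. Of the p53 targets, 4 were over 2-fold lower as counted above, 2 with log2(RPKM + 1) and 6 with totals over NM_ transcripts. The RPKM + 1 scale shrinks the ratios of low genes. Of 336 counts of list genes over the settings, 22 moved, either by over 1.5 times or to or from 0. Among them, the arrest genes had 1 over 2-fold lower with NM_ totals and the related quinone reductases 1 with a minimum of 10 counts, where none was counted before. The ERK genes had 0 over 2-fold higher in place of 1 with a minimum of 200 counts and with log2(RPKM + 1), and the imprinted domain had 1 in place of 3 in both. ENST transcripts alone gave no value, since none belonged to the 9 genes. No paired analysis was possible because the table has 1 column per cell line, and leaving out replicates was not run for the same reason. Depth limits GDF15 most, at 375 and 367 counts.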
